A study of Mus musculus with 6 samples.

Results

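The interferon response genes of mouse tibia are 38 genes taken by symbol from a list of known targets of type I and type II interferon, and they were matched to the gene identifiers of the deposited count tables, which hold 56748 identifiers. All 38 were found, on 14 chromosomes, and all 38 had enough reads to be tested, as did 18514 genes in all. The genes fall into 7 groups by role: signalling factors (Irf1, Irf7, Irf9, Stat2), sensors of foreign nucleic acid (Ifih1, Zbp1), the ISG15 modifier and its protease (Isg15, Usp18), 12 antiviral effectors, 7 further interferon-induced genes, 8 interferon-inducible GTPases, and 3 genes of antigen processing (Psmb8, Psmb9, Tap1). The tibiae were those of females at 12 weeks of age, with 3 samples labelled Col1a1+/- and 3 labelled wild type. No treated sample is among them, and the labels do not say how the Col1a1 allele was made or whether the samples of a genotype are separate animals. The p-values then measure no more than sample-to-sample spread, which may be technical. Marrow was flushed out before the bones were frozen, and the libraries, made from polyadenylated RNA, held between 26.8 and 32.4 M counts each.

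Interferons are cytokines, and those of type I are released when a cell senses a virus or stray nucleic acid. Type I interferons signal through the Ifnar receptor to a complex with STAT2 and IRF9 that binds the interferon-stimulated response element (ISRE), and type II interferon, or interferon gamma, signals through the Ifngr receptor to the gamma-activated sequence (GAS). In bone, both kinds of interferon are known as brakes on the formation of osteoclasts, the cells that resorb bone.

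The letters of these elements could be read in the promoters of many of the genes, which had been listed as known interferon targets beforehand. In the RefSeq promoter table for GRCm38.p6, an earlier build than the GRCm39 of the counts, 29 of the 38 genes were listed. In the 250 bases before the start site, on either strand, the letters of an ISRE core, GAAANNGAA, stood in 17 of the 29 (58.6%) and in 8.18% of the 27025 genes of the table. The letters of a GAS core, TTCNNNGAA, stood in 9 of the 29 (31.0%) and in 8.13% of all genes. Overlapping matches were counted separately, and a match describes letters and is not a measured binding site. All 7 listed GTPases held an ISRE core and 4 of them a GAS core as well (Gbp5, Gbp7, Igtp, Irgm2), while none of the 3 antigen processing genes held an ISRE core and Psmb8 held a GAS core.

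The stretches around the matches are shown for 7 genes whose counts are described further on, with the matched letters in capitals and all others in lower case, each 5′ to 3′ on the strand of the gene. Igtp and Irgm2 are neighbours, and their stretches show a GAS core followed after 2 bases by an ISRE core. Isg15 and Oas3 carry runs of overlapping ISRE cores, Ifih1 and Ifit1 carry theirs on the opposite strand, and Irf1 carries a GAS core alone.
Igtp: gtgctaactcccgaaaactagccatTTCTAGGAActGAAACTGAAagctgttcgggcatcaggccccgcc
Irgm2: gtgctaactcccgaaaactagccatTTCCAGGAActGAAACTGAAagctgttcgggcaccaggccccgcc
Isg15: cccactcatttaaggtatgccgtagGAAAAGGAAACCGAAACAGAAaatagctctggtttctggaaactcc
Oas3: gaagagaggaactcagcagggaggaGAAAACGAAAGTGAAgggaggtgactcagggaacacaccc
Ifih1: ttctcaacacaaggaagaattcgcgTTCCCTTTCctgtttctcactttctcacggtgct
Ifit1: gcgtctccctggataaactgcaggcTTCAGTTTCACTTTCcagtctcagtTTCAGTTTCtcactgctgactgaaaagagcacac
Irf1: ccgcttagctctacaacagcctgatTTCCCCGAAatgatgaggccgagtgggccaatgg
On GRCm38.p6 these lie at chr11:58199486-58199555 for Igtp and chr11:58214877-58214946 for Irgm2 (both plus strand), chr4:156200851-156200921 for Isg15, chr5:120777695-120777759 for Oas3 and chr2:62646334-62646392 for Ifih1 (all minus strand), and chr19:34640755-34640838 for Ifit1 and chr11:53769899-53769957 for Irf1 (both plus strand). Of the 70 bases printed for Igtp and Irgm2, 68 were identical and 2 differed. The ISRE core began 34 bases before the start site of Igtp and 64 before that of Irgm2, and the GAS core of Irf1 began 90 bases before its start.

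The question put to the genes was whether their RNA differed between Col1a1+/- and wild-type tibia. None of the 38 passed the threshold in either direction by edgeR's quasi-likelihood test, adjusted over all 18514 genes at 0.05. Among all tested genes 1.43% were called higher in Col1a1+/- and 2.91% lower. The log2 fold change, Col1a1+/- over wild type, lay below 0 for 33 of the 38 genes, against 50.9% of all genes, and its median was -0.22, with quartiles of -0.32 and -0.06, against a median of -0.01 and quartiles of -0.29 and 0.22 over all genes. Only Ifi27, Ifit2, Irf1, Oasl1 and Tap1 lay above 0. The genes share their 6 libraries and their regulators, so they are not 38 independent measurements. Single genes gave 3 with an unadjusted p under 0.05 (22.8% of all genes), and the same 3, Igtp, Zbp1 and Gbp5, were lower in every Col1a1+/- library than in every wild-type library (14.5% of all genes), while none was higher in every one (14.0% of all genes). Those shares are no greater among the interferon response genes than in the background. DESeq2 called 1 of the 38 lower, Igtp at an adjusted p of 0.0249, among 7.92% of all genes that it called lower, and edgeR without a filter on low counts also called Igtp alone, at 0.0104, among 2.75% of all genes.

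The precision of the comparison can be read from the 95% intervals of the log2 fold changes, which reached a median of 0.47 to either side of the estimate and 0.97 at the widest. All 38 intervals lay below a doubling in Col1a1+/-. For 30 genes the interval also lay above a halving, so that this fit bounds each difference to within 2-fold either way. The intervals hold for each gene by itself and for this fit alone, and other processings gave other estimates. For the other 8, Igtp, Isg15, Mx1, Oas1a, Oas2, Oas3, Trim30a and Zbp1, a halving lay inside the interval.

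**Figure D1:**
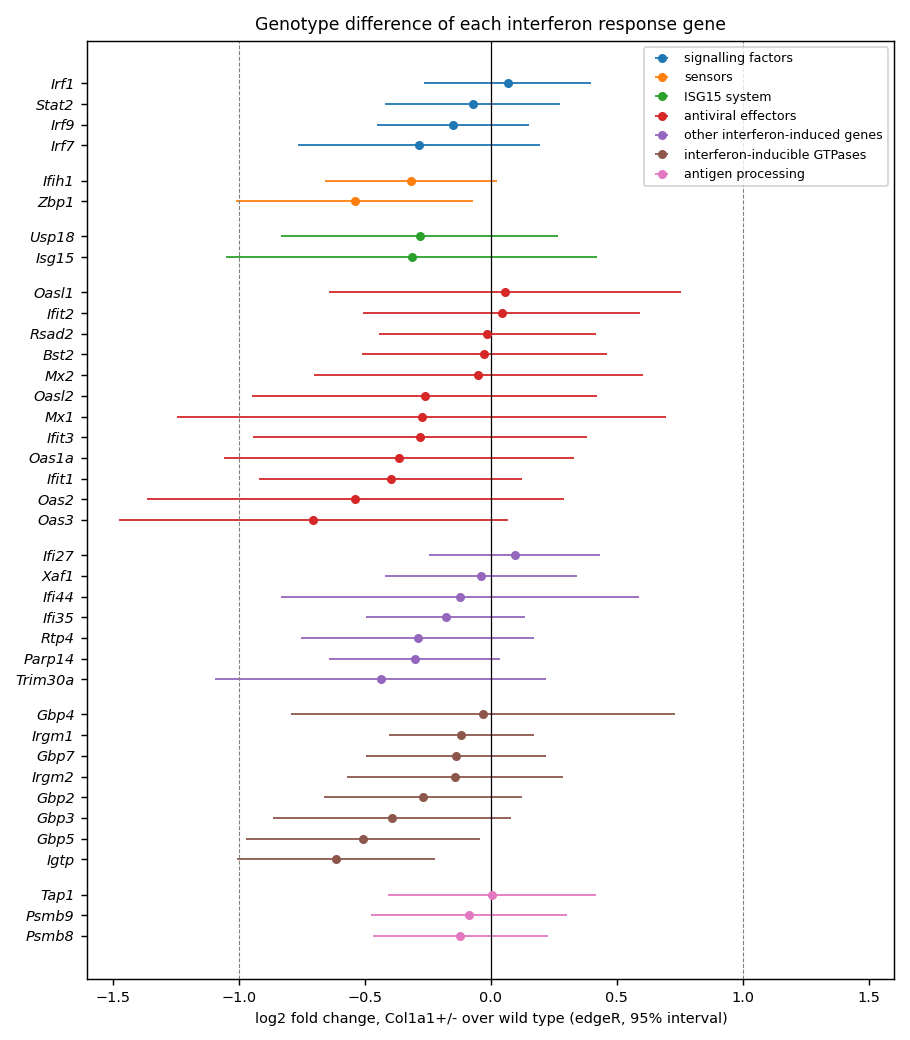
Log2 fold change of each of the 38 genes, Col1a1+/- over wild type, grouped by role, from edgeR; the point is the estimate, the bar the 95% interval, and the dashed lines mark a halving and a doubling. The points of 33 genes lie left of 0, and the bars of Igtp, Zbp1 and Gbp5 do not reach it.

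Levels per exon length ranged widely among the genes. Bst2, which tethers budding virus to the cell surface, averaged 77.8 RPKM (reads per kilobase of exon per M counts) over the 6 libraries, and Ifi27, a small membrane protein gene, 74.4 RPKM. Isg15 followed at 19.5 RPKM, Ifi35 at 11.4, Igtp at 11.2, Rsad2 at 9.84 and Irf1 at 9.63. At the other end stood Mx2 at 0.723 RPKM, Ifi44 at 0.838, Gbp5 at 1.12, Oasl1 at 1.22 and Mx1 at 1.26. These levels describe mRNA of bone flushed of marrow, with its cell types together. Fewer cells of a type and less RNA per cell cannot be told apart in it.

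**Figure D2:**
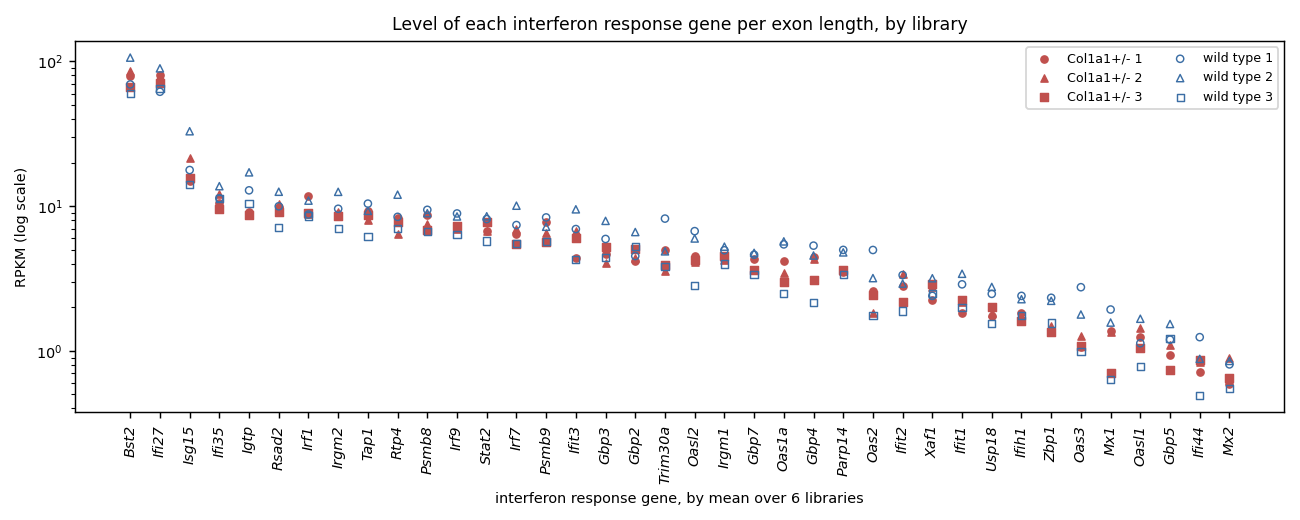
Level of each of the 38 genes in each library, in RPKM on a log scale, ordered by the mean over 6 libraries; filled red symbols are Col1a1+/- and open blue symbols wild type, with circle, triangle and square for replicates 1, 2 and 3. Bst2 and Ifi27 stand above the rest, and the wild-type triangle is above the wild-type square for all 38 genes.

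Among the interferon-inducible GTPases, which attack the vacuoles and membranes of intracellular pathogens, all 8 genes had a log2 fold change below 0 and the median was -0.21. Igtp (ENSMUSG00000078853, chromosome 11, 58090382 to 58098417, plus strand, GRCm39), an immunity-related GTPase, gave the smallest p of all 38 genes. In replicates 1, 2 and 3 of Col1a1+/- its level was 18.3, 17.4 and 17.7 counts per M counts after TMM scaling (CPM), and replicates 1, 2 and 3 of wild type gave 26, 34.6 and 21.2 CPM. All Col1a1+/- libraries were below all wild-type libraries and lay within 1.05-fold of each other, while the wild-type libraries spread over 1.63-fold. The log2 fold change of Igtp was -0.61 (SE 0.17, 95% interval -1.01 to -0.22), a wild-type level 1.53-fold that of Col1a1+/-, with an adjusted p of 0.0754 by edgeR. Over 8.01% of its exon length Igtp overlaps Irgm2 on the same strand, and reads there were left out of both genes. Irgm2 itself stood at 32.5, 33.4 and 31.5 CPM in Col1a1+/- and at 35.4, 46.3 and 25.9 CPM in wild type. The Irgm2 groups overlapped, with a log2 fold change of -0.14 (SE 0.19, edgeR adjusted p = 0.708). As annotated for counting, Irgm2 runs from 58090444 to 58113608 (plus strand, GRCm39), so it begins inside Igtp. Its counts may therefore include transcripts that start there and not at its own printed promoter stretch.

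The guanylate-binding proteins, the other GTPase family, are clustered on chromosomes 3 and 5. Gbp5, which promotes inflammasome assembly, was at 6.26, 7.27 and 4.87 CPM in Col1a1+/- and at 7.94, 10.2 and 8.07 CPM in wild type, so the groups did not overlap. Its log2 fold change was -0.51 (SE 0.21, edgeR adjusted p = 0.182). Gbp3 measured 15.2, 13.2 and 17.0 CPM in Col1a1+/- against 19.4, 25.8 and 14.5 CPM in wild type, and wild-type replicate 3 lay among the Col1a1+/- libraries (log2 fold change -0.39, SE 0.21, edgeR adjusted p = 0.304). Gbp2 had 10.6, 11.0 and 12.7 CPM in Col1a1+/- and 11.4, 16.7 and 13.3 CPM in wild type, again with overlap (-0.27 on the log2 scale, edgeR adjusted p = 0.404). The remaining members of the group lay closer to 0, with log2 fold changes of -0.14 for Gbp7, -0.12 for Irgm1 and -0.03 for Gbp4. Reads from closely related Gbp and Irg genes that map to several places were not counted, which leaves these levels uncertain.

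The sensors were the role group with the lowest median, -0.43, over 2 genes. Zbp1 (ENSMUSG00000027514, chromosome 2, 173048405 to 173060716, minus strand, GRCm39), which binds left-handed nucleic acid and can start necroptosis, stood at 4.85, 5.24 and 4.73 CPM in Col1a1+/- and at 8.21, 7.83 and 5.51 CPM in wild type. The groups did not overlap, but wild-type replicate 3 was nearer to the Col1a1+/- libraries than to the other two wild-type ones (log2 fold change -0.54, SE 0.21, edgeR adjusted p = 0.163). Ifih1, which encodes the double-stranded RNA sensor MDA5, was at 15, 14 and 13.2 CPM in Col1a1+/- and at 19.6, 18.6 and 14.4 CPM in wild type. Here wild-type replicate 3 lay inside the Col1a1+/- range (log2 fold change -0.32, SE 0.15, edgeR adjusted p = 0.25), and the neutrophil covariate took the estimate to -0.16.

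Antiviral effectors act on viral RNA, translation or budding, and 10 of the 12 had a log2 fold change below 0, with a median of -0.27. The 2'-5'-oligoadenylate synthetases, which switch on RNase L when they meet double-stranded RNA, held the largest estimate: Oas3 was at 7.46, 8.91 and 7.63 CPM in Col1a1+/- and at 19.5, 12.6 and 6.96 CPM in wild type. For Oas3 (chromosome 5, 120891163 to 120915726, minus strand, GRCm39) the wild-type libraries thus included both the highest and the lowest value, and the log2 fold change of -0.70 had an SE of 0.33 (edgeR adjusted p = 0.257). Without wild-type replicate 1 it was -0.26, and with the neutrophil markers as a covariate -0.14. These are not separate checks, as the neutrophil share was high in wild-type replicate 1 alone. Its neighbour Oas2 had the same order among wild-type libraries, with 11.5, 8.11 and 10.8 CPM in Col1a1+/- and 22.2, 14.2 and 7.79 CPM in wild type (log2 fold change -0.54, SE 0.35, edgeR adjusted p = 0.423). Oas1a and Oasl2 gave log2 fold changes of -0.36 and -0.26, and Oasl1 0.06.

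Ifit1, which binds viral RNA, measured 4.88, 5.80 and 6 CPM in Col1a1+/- and 7.66, 9.06 and 5.27 CPM in wild type. Wild-type replicate 3 again lay inside the other group (log2 fold change -0.40, SE 0.23, edgeR adjusted p = 0.348). Its family members Ifit3 and Ifit2 gave log2 fold changes of -0.28 and 0.04. Bst2 was at 71.4, 77.1 and 60.4 CPM in Col1a1+/- and at 62.6, 95.9 and 54.1 CPM in wild type. The wild-type range took in all Col1a1+/- values, with a log2 fold change of -0.03 (SE 0.21, edgeR adjusted p = 0.962) that turned to 0.06 when libraries were scaled by their totals. The dynamin-like GTPases Mx1 and Mx2 gave -0.27 and -0.05, with a wide SE of 0.42 for Mx1, and Rsad2, which makes a chain-terminating nucleotide, gave -0.01.

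Among the further interferon-induced genes, 7 with a median of -0.18, Parp14 had the smallest p. This ADP-ribosyltransferase was at 32.6, 33.0 and 33.5 CPM in Col1a1+/-, a spread of 1.03-fold, and at 46.4, 44.6 and 31.2 CPM in wild type. Wild-type replicates 1 and 2 were above, and replicate 3 below, every Col1a1+/- library (log2 fold change -0.30, SE 0.15, edgeR adjusted p = 0.269). Trim30a, a ubiquitin ligase gene of the TRIM family, was at 20.6, 14.6 and 16.1 CPM in Col1a1+/- and at 33.7, 20.04 and 15.7 CPM in wild type, where replicate 1 alone stood high (log2 fold change -0.44, SE 0.28, edgeR adjusted p = 0.411). Rtp4, a receptor transporter gene, had 17.7, 13.6 and 16.5 CPM in Col1a1+/- and 18.0, 25.6 and 15 CPM in wild type (log2 fold change -0.29, edgeR adjusted p = 0.446). For Rtp4 it was wild-type replicate 2 that stood high.

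Ifi27 was at 118, 116 and 104 CPM in Col1a1+/- and at 90.5, 131 and 95 CPM in wild type, a log2 fold change of 0.09 (SE 0.15, edgeR adjusted p = 0.767). The Col1a1+/- libraries thus lay between the wild-type ones. Ifi35, Ifi44 and Xaf1 gave log2 fold changes of -0.18, -0.12 and -0.04. Exons of Rtp4 and Ifi35, and of Irf1, Psmb8 and Gbp7, share over 10% of their length with another annotated gene, and reads there were not counted for either.

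Isg15, the ubiquitin-like modifier that is attached to proteins during the response, was at 10.5, 15.1 and 11.0 CPM in Col1a1+/- and at 12.5, 23.2 and 9.94 CPM in wild type. Wild-type replicate 2 was the highest and replicate 3 the lowest of the 6, and the log2 fold change was -0.31 (SE 0.32, edgeR adjusted p = 0.617). Leaving out wild-type replicate 2 turned it to 0.12. Usp18, which removes ISG15 and damps the type I receptor, measured 4.82, 5.10 and 5.65 CPM in Col1a1+/- and 6.91, 7.72 and 4.30 CPM in wild type, with the same wild-type libraries at both ends (log2 fold change -0.28, edgeR adjusted p = 0.545).

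The signalling factors are known to drive the other genes, and their differences were small, with a median of -0.11 over 4. Irf7, the factor that amplifies type I interferon production, was at 24.3, 26.2 and 20.6 CPM in Col1a1+/- and at 28, 38 and 20.8 CPM in wild type (log2 fold change -0.29, SE 0.21, edgeR adjusted p = 0.471). Irf1, whose promoter carries the GAS core, was at 46.4, 35.3 and 35.8 CPM in Col1a1+/- and at 34.8, 43.4 and 34.0 CPM in wild type. Its highest value was in Col1a1+/- replicate 1, and the log2 fold change of 0.07 (SE 0.15, edgeR adjusted p = 0.838) turned to -0.06 without that library. Irf9 and Stat2, which act together in the ISRE-binding complex, gave log2 fold changes of -0.15 (SE 0.13) and -0.07 (SE 0.15).

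For antigen processing, Tap1, a subunit of the transporter that brings peptides into the endoplasmic reticulum, was at 51.0, 43.7 and 47.3 CPM in Col1a1+/- and at 57.0, 50.8 and 33.7 CPM in wild type. Both means lay near 47 CPM, and the log2 fold change was 0.01 (SE 0.18, edgeR adjusted p = 0.991). Psmb8, an inducible proteasome subunit, had 29.2, 25.4 and 23.3 CPM in Col1a1+/- and 31.9, 30.2 and 22.6 CPM in wild type (log2 fold change -0.12, edgeR adjusted p = 0.697), and Psmb9 gave -0.09. Psmb8 and Psmb9 replace the constitutive subunits encoded by Psmb5 and Psmb6, so their count ratios were compared, which do not depend on library scaling. For Psmb8 to Psmb5 the Col1a1+/- ratios were 0.623, 0.433 and 0.512 and the wild-type ratios 0.625, 0.417 and 0.295, with means of 0.523 ± 0.0955 and 0.446 ± 0.167 (± SD over 3 libraries, n = 3; exact two-sided permutation p = 0.5, adjusted p = 0.8 over 2 ratios). The Psmb9 to Psmb6 ratio averaged 0.220 ± 0.0428 in Col1a1+/- against 0.203 ± 0.0712 in wild type (± SD over 3 libraries, n = 3; exact two-sided permutation p = 0.8, adjusted p = 0.8). Neither ratio differed beyond the spread, and with 3 libraries against 3 such a test cannot give a p below 0.1. The denominators gave log2 fold changes of -0.41 for Psmb5 (edgeR adjusted p = 0.195) and -0.24 for Psmb6 (edgeR adjusted p = 0.373).

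**Figure D3:**
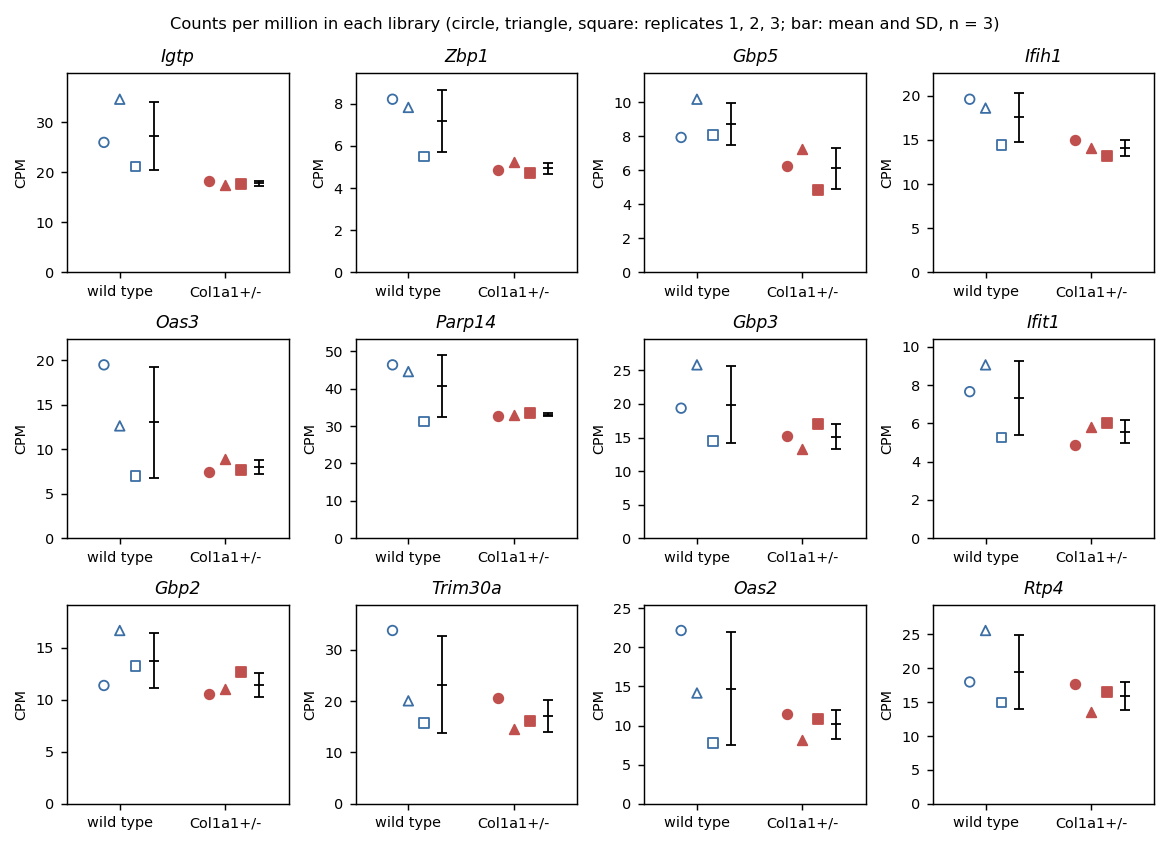
CPM of the 12 genes with the smallest p, in each library, with symbols for replicates 1, 2 and 3 and a bar for mean and SD (n = 3). Igtp, Zbp1 and Gbp5 show no overlap between the genotypes, and in most of the other panels wild-type replicate 3, the open square, lies within or below the Col1a1+/- values.

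Each gene was set against its own mean over the 6 libraries, on the log2 CPM scale. The median deviation of the 38 genes was -0.06, -0.09 and -0.13 in Col1a1+/- replicates 1, 2 and 3 and 0.22, 0.33 and -0.30 in wild-type replicates 1, 2 and 3, while the same median over all genes stayed between -0.01 and 0.01. The genes therefore stood high together in wild-type replicates 1 and 2 and low together in wild-type replicate 3, with the Col1a1+/- libraries between. Wild-type replicate 2 was above the gene's mean for 38 of 38 genes (52.2% of all tested genes) and held the highest value for 21 (11.8% of all tested genes). Wild-type replicate 1 was above the gene's mean for 30 (48.1% of all tested genes). It held the highest value for 14 (18.2% of all tested genes), among them Oas2, Oas3, Oasl2, Mx1 and Trim30a. Wild-type replicate 3 held the lowest of all 6 values for 24 genes (16.6% of all tested genes) and the lowest wild-type value for 33 (27.2% of all tested genes), the exceptions being Gbp2, Gbp5, Ifi27, Ifi35 and Xaf1.

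The spread within wild type was the wider one for 35 of the 38 genes, against 59.2% of all tested genes. The highest over the lowest library had a median of 1.71-fold within wild type and 1.26-fold within Col1a1+/-, and over all tested genes the medians were 1.37-fold and 1.28-fold. Wild-type replicates 1 and 2 were both above the highest Col1a1+/- library for 24 genes (17.7% of all tested genes), and wild-type replicate 3 was below the lowest Col1a1+/- library for 25 (33.0% of all tested genes). Summed over the 38 genes, Col1a1+/- libraries held 885, 862 and 809 CPM and wild-type libraries 993, 1109 and 716 CPM, so both the highest and the lowest total belonged to wild type. By role, the summed level of the GTPases was 40.8, 39.4 and 39.5 RPKM in Col1a1+/- and 49.0, 60.3 and 37.9 RPKM in wild type. The antiviral effectors summed to 113, 122 and 99.6 RPKM in Col1a1+/- and 116, 155 and 85.2 RPKM in wild type, and both groups therefore had their highest sum in wild-type replicate 2 and their lowest in wild-type replicate 3. The other roles followed this order in part: wild-type replicate 3 had the lowest median deviation of the 6 libraries for the signalling factors (-0.27), the ISG15 system (-0.39), the further induced genes (-0.21) and antigen processing (-0.26). For the sensors it lay at -0.11, above the Col1a1+/- libraries at -0.17, -0.16 and -0.28, and for antigen processing Col1a1+/- replicate 1, at 0.13, stood above wild-type replicate 2, at 0.12.

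**Figure D4:**
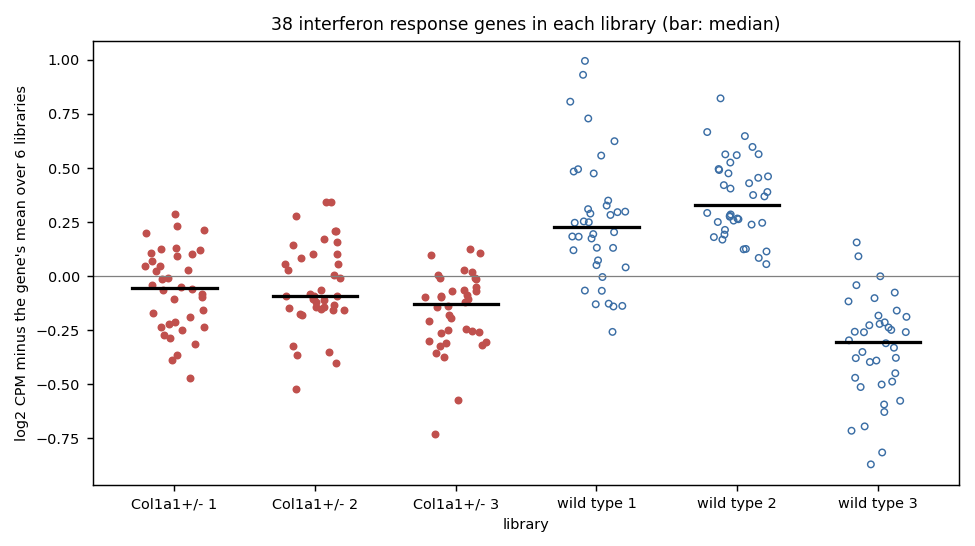
Deviation of each of the 38 genes from its mean over 6 libraries, in log2 CPM, by library, with a bar at the median; filled points are Col1a1+/- and open points wild type. The medians are 0.22 and 0.33 in wild-type replicates 1 and 2 and -0.30 in wild-type replicate 3.

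The size of the difference rested on single wild-type libraries. Without wild-type replicate 3, 36 of the 38 genes lay below 0 and the median log2 fold change was -0.37. In that fit 18 of them had an unadjusted p under 0.05, against 16.9% of all genes. Wild-type replicate 3 held the lowest wild-type value for 33 of the 38, so leaving it out raises their wild-type mean by construction. The 18 are therefore no separate evidence of a difference. None of the 38 passed after adjustment by edgeR (smallest adjusted p = 0.0865), and neither did any of the 19123 genes tested there. Without wild-type replicate 1 the median was -0.08, and without wild-type replicate 2 it was -0.07, each with 24 genes below 0 and 14 above. Leaving out a Col1a1+/- library gave medians of -0.20, -0.24 and -0.15 for replicates 1, 2 and 3. Over these fits the estimate lay between -0.77 and -0.41 for Igtp, between -0.70 and -0.40 for Zbp1, and between -0.64 and -0.34 for Gbp5. The genotypes did not overlap for these genes, so the sign was nearly fixed in advance when 1 library was left out. With the skeletal muscle markers as a covariate, Gbp5 was at -0.03 (edgeR adjusted p = 0.996), Igtp at -0.88 and Zbp1 at -0.72. That fit called 0 of all 18514 genes, and muscle RNA and genotype cannot be told apart, so it cannot set these genes apart.

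**Figure D5:**
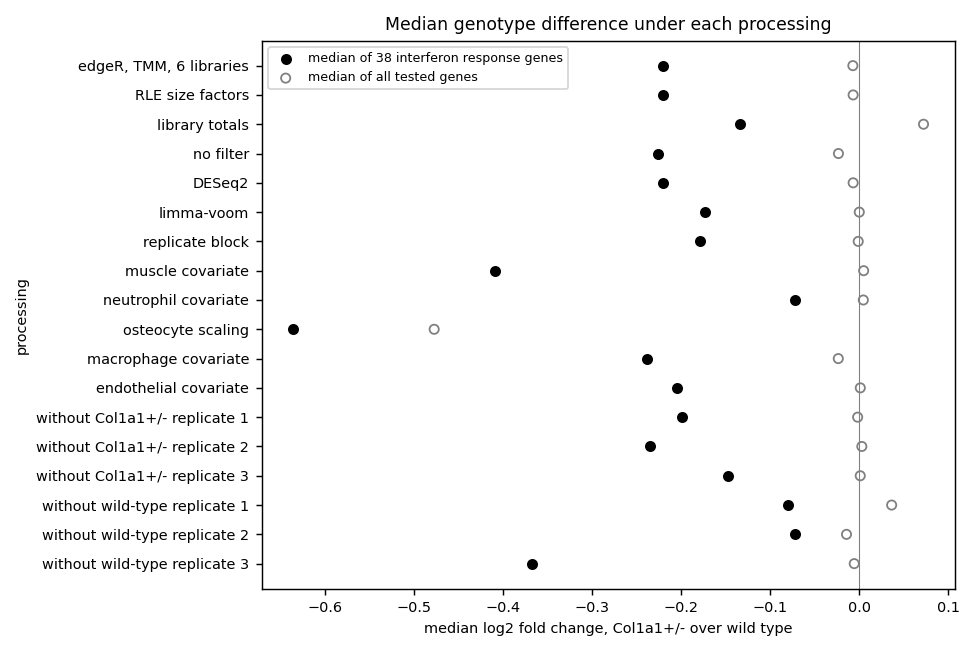
Median log2 fold change of the 38 genes (filled) and of all tested genes (open), Col1a1+/- over wild type, under each processing. The filled points lie between -0.64 and -0.07, and with scaling on osteocyte genes the median of all genes itself is -0.48.

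RNA of other cell types differed between libraries and is set beside these values. Skeletal muscle markers took 1.52% to 3.09% of counts in Col1a1+/- and 4.76% to 5.97% in wild type, all 14 of 14 with a log2 fold change below 0 and 4 called lower, and wild-type replicate 3 had the highest share. With the muscle list as a covariate the median of the 38 interferon response genes was -0.41. Neutrophil markers, all 11 of 11 with a log2 fold change below 0 and 0 called, took 0.104% to 0.173% in Col1a1+/- and 0.148% to 0.622% in wild type, where replicate 1 held the 0.622%. With the neutrophil list as a covariate the median was -0.07, and Trim30a and Oas2 went to 0.16 and 0.10. Since wild-type replicate 1 alone was high, neutrophil RNA and other traits of that library cannot be told apart. Macrophage and monocyte markers, 7 of 10 tested above 0, took 0.0877% to 0.105% in Col1a1+/- and 0.1002%, 0.0797% and 0.0671% in wild-type replicates 1, 2 and 3. Below 0 lay Ly6c2 (log2 fold change -1.05), Ccr2 (-0.47) and Vcam1 (-0.07). Ly6c2 and Ccr2 had their highest levels in wild-type replicate 1, at 126 and 94.8 CPM. The median of the 38 interferon response genes was -0.24 with the macrophage list as a covariate.

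The 7 dendritic cell markers other than Cox6a2, which muscle also expresses, took 0.00376% to 0.00501% in Col1a1+/- and 0.00354% to 0.00503% in wild type. Osteoblast markers, the cells that define bone tissue, took 1.28% to 1.51% in Col1a1+/- and 0.667% to 0.855% in wild type, with 3 of 8 genes called higher. Osteocyte markers took 0.0373% to 0.0562% in Col1a1+/- and 0.0227% to 0.0365% in wild type, 6 of 6 tested above 0. When libraries were scaled on the osteocyte genes instead of on all genes, all 38 interferon response genes lay below 0, with a median of -0.64 beside -0.48 over all genes, and 4 were called lower (Igtp, Oas2, Oas3 and Trim30a, edgeR adjusted p between 0.0138 and 0.0431), among 10.1% of all genes called lower. Osteoclast markers took 0.731% to 0.923% in Col1a1+/- and 0.491% to 0.601% in wild type, 8 of 8 above 0. B cell markers took 0.0131% to 0.0135% against 0.0139% to 0.0165%, 8 of 8 below 0, and megakaryocyte markers 0.0188% to 0.0272% against 0.0273% to 0.0330%, 5 of 5 tested below 0. Of the 13 marker lists 7 had shares that did not overlap between genotypes: skeletal muscle, dendritic cell (with Cox6a2), B cell, megakaryocyte, osteoblast, osteocyte and osteoclast. An exact permutation p of 0.1 is the smallest that 3 libraries against 3 allow, and each of the 7 was at it, so this test could not call any share. The part of the bone cell, B cell and megakaryocyte lists in the values of the interferon response genes was not tested. Col1a1 itself stood at 52880 to 61149 CPM in Col1a1+/- and at 36810 to 61347 CPM in wild type (log2 fold change 0.18, SE 0.31, edgeR adjusted p = 0.78), and its counts per count of Col1a2, its partner chain, were 0.775 to 0.836 against 1.25 to 1.32.

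The rest of the pathway was read from 9 lists with 139 genes. Ligands were barely seen: the 9 interferon genes listed summed to 2, 2 and 4 counts in Col1a1+/- and 2, 2 and 0 in wild type. Ifng held 2 counts in 5 libraries and Ifnb1 2 in Col1a1+/- replicate 3, all under a limit of 3 counts per library, and Ifna genes are near-identical copies whose reads were partly left out. Outside the ligands 128 genes were tested, of which 0 were called in either direction by edgeR (smallest adjusted p = 0.0652). Of all tested genes 1.43% were called higher and 2.91% lower. An unadjusted p under 0.05 by edgeR was found for 14 of the 128, against 22.8% of all genes. A log2 fold change below 0 was found for 75, against 50.9% of all genes, and the median of the 128 was -0.04. The 10 receptor and JAK-STAT genes had a median of 0.06. Ifngr1, the ligand-binding chain for interferon gamma, was at 98.1, 93.2 and 103 CPM in Col1a1+/- and 92.7, 82.7 and 86.9 CPM in wild type, and its partner Ifngr2 at 74.0, 76.7 and 74.5 CPM against 82.4, 85.7 and 89.9 CPM. The chains of that receptor stood on opposite sides of wild type without overlap, with log2 fold changes of 0.16 (edgeR adjusted p = 0.36) and -0.20 (edgeR adjusted p = 0.244). They were the 1 higher and the 1 lower of the 10 genes without overlap. Of all tested genes 14.0% were higher and 14.5% lower in that way. Jak1, a kinase of both receptors, gave 0.00, Ifnar1 0.22 and Ifnlr1, the receptor for type III interferon, -0.97 with an SE of 0.49.

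A further 67 interferon-stimulated genes outside the 38 were tested. Their median was -0.15, with 48 below 0 and 19 above, where 50.9% of all genes lay below 0. Ifi30, which reduces disulfide bonds in lysosomes, had the largest of the estimates above 0, 0.57 (SE 0.15, edgeR adjusted p = 0.0652), at 88.0, 69.8 and 108 CPM in Col1a1+/- and 61.7, 59.0 and 58.9 CPM in wild type. Dtx3l, a ubiquitin ligase gene that works with Parp9, was at 15.3, 13.6 and 14.1 CPM against 20.3, 18.8 and 17.6 CPM, and in contrast to most of the 38 genes wild-type replicate 3 stayed above the Col1a1+/- libraries (log2 fold change -0.40, SE 0.12, edgeR adjusted p = 0.0972). Shisa5 and Lgals9 gave 0.24 and -0.26.

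Among nucleic acid sensing genes, 14 in number with a median of 0.00, the Toll-like receptor adaptor Ticam1 was at 15.9, 15.7 and 16.6 CPM in Col1a1+/- and 12.4, 11.9 and 11.3 CPM in wild type (log2 fold change 0.43, edgeR adjusted p = 0.0792). Tlr7 gave 0.40, Dhx58 -0.35 and Mavs -0.30. The 6 other interferon regulatory factors had a median of -0.30, with Irf5 at -0.43 (edgeR adjusted p = 0.12) and Irf3 at 0.07. The 8 negative regulators had a median of 0.10, with Socs3 at 0.28, Ptpn1 at 0.20, Ptpn11 at -0.32 (edgeR adjusted p = 0.12) and Cish at -0.38.

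The 7 MHC class II genes, which present peptides on macrophages, dendritic and B cells, all lay above 0 (median log2 fold change 0.26), and H2-Aa was at 146, 117 and 115 CPM in Col1a1+/- and 105, 107 and 95.5 CPM in wild type (0.29 on the log2 scale, edgeR adjusted p = 0.197). H2-Eb1 gave 0.28. Of the 13 MHC class I and peptide loading genes 8 lay above 0 and 5 below, with a median of 0.09. B2m, the light chain of MHC class I, was at 1036, 842 and 796 CPM in Col1a1+/- and 662, 775 and 635 CPM in wild type. It was higher without overlap, as were 14.0% of all tested genes (log2 fold change 0.37, SE 0.16, edgeR adjusted p = 0.216). H2-D1 gave 0.34, Psme1 -0.13 and Tap2 -0.05. The constitutive subunit Psmb7 gave -0.63 (edgeR adjusted p = 0.0821).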

How the data were processed

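RNA of 6 tibia samples was measured by sequencing, and the values analysed are the raw counts per gene that the authors deposited, each library in a table of its own and not normalized, per the file headers. Reads had been processed with Trimmomatic 0.39, HISAT2 2.2.1 and SAMtools 1.20, per the submitters' processing notes, with settings not given in the sources used here, and counted with featureCounts 2.0.3 on Ensembl 107 and GRCm39, as the file headers record. Its command takes paired input without counting pairs, so each mate is 1 count (61.8% to 64.2% of counts from 1 to 20 were even), sets no strand, and skips multi-mapping reads and those over more than 1 gene. Of 56748 identifiers 52073 (91.8%) received a symbol from an annotation table of an earlier build. Genotypes came from the labels.

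Genes were kept with filterByExpr (18514 genes, 99.87% to 99.90% of counts), scaled by TMM (factors 0.892 to 1.10) and compared with the quasi-likelihood F test of edgeR 4.0.16 in R 4.3.3, robust, genotype as the only term, two-sided, with Benjamini-Hochberg adjustment at 0.05 over all genes. The SE is the absolute log2 fold change over the square root of F. The test was checked on simulated counts. Alternatives were RLE factors, library totals, no filter, DESeq2 1.42.0, limma-voom (limma 3.58.1), each library left out, the replicate number as a block, muscle or neutrophil lists as a covariate and, chosen after seeing the data, scaling on osteocyte genes and macrophage or endothelial covariates.

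The 38 genes and all lists were chosen with earlier results of these data known. Genes given library by library are the 12 with the smallest p, and in each role the one with the smallest p and the one with the highest RPKM, 20 in all; of each pathway list up to 4, 2 in each direction by smallest p. Irgm2, Psmb6, Jak1, Ifng and Ifnb1 were chosen with their values in view, and a few pathway genes are not reported here. Within a genotype, libraries differed by 25.7 to 87.6 times counting variance (chi-square per degree of freedom), so none was a copy of another.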

Additional observations from a re-analysis of the deposited data

How the results depend on the processing

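Of 17 alternatives, edgeR without a filter and DESeq2 each called 1 of the 38 interferon response genes lower and osteocyte scaling 4, with a median log2 fold change of -0.64 (beside -0.48 over all genes); under the others none was called higher or lower. Over the fits without 1 library the median of the 38 ranged from -0.37 to -0.07, and library totals gave -0.13. Over all genes, 265 were called higher and 538 lower; the higher calls became 588 with library totals, 577 without a filter, 782 by DESeq2, 22 with osteocyte scaling and 0 with the muscle covariate (1026 genes at an unadjusted p under 0.05 by edgeR). Lower calls became 895 without a filter, 1466 by DESeq2, 923 with the neutrophil covariate, 273 with the endothelial covariate, 1869 with osteocyte scaling and 0 with the muscle covariate. Leaving out 1 library gave 0 to 594 higher and 0 to 1172 lower, with none by edgeR without Col1a1+/- replicate 1 (3275 at an unadjusted p under 0.05) or wild-type replicate 3 (3239).

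Some estimates changed sign. With the neutrophil covariate the log2 fold change was 0.16 for Trim30a, 0.10 for Oas2, -0.030 for Ifi27 and 0.077 for Psmb8. With the muscle covariate it was -0.11 for Irf1, 0.094 for Bst2 and -0.55 for Tap1. With osteocyte scaling it was -0.38 for Irf1, -0.32 for Ifi27 and -0.48 for Tap1, and with the macrophage covariate -0.0098 for Irf1 and -0.10 for Tap1. Bst2 was at 0.058 with library totals and 0.011 with limma-voom. Without 1 library, Irf1 ranged from -0.057 to 0.19, Isg15 from -0.54 to 0.12, Bst2 from -0.19 to 0.25, Psmb8 from -0.26 to 0.0074, Tap1 from -0.19 to 0.20, and the Psmb9 to Psmb6 ratio, Col1a1+/- over wild type, from 0.940 to 1.34. The causes were not tested.

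The replicate numbers share only a number: deviations of same-numbered libraries correlated at 0.107, 0.041 and -0.122. With the replicate block 37 genes were called higher and 89 lower, the median of the 38 was -0.18, Bst2 was at 0.010 and no interferon response gene was called.

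The lowest count of a gene given library by library was 124, and with 3 libraries a genotype the 95% intervals reached 0.97 to either side of a log2 fold change. Muscle marker shares did not overlap between genotypes, and muscle RNA and genotype cannot be told apart.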
